A study of Mus musculus with 2 samples.

Results

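The 38 genes described here encode the core switch of the mammalian cell cycle: 12 cyclins, 4 cyclin-dependent kinases (CDKs), 6 CDK inhibitors, the CDK phosphatase Cdkn3, 8 E2F transcription factors, 3 pocket proteins, 3 CDC25 phosphatases and the kinase Wee1. They were given by name, by role in the cell cycle, and all 38 were found among 43346 mouse gene identifiers in the gene tables. RNA came from livers of B6NCrl mouse embryos at 12.5 days of development, with males and females pooled and no treatment or engineered allele named in the labels. The libraries form 1 group: 120 embryos were pooled for replicate 1 and 88 others for replicate 2, and each library started from 10 ng of total RNA above 200 bases. Each pool gave 1 library, so the SD over n = 2 libraries measures the difference between pools and their handling, not the variation between embryos. With 1 group, no comparison of conditions and no p-value was possible.

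Cyclins bind CDKs and set their activity and targets. In the textbook order, D cyclins with CDK4 or CDK6 act in early G1 phase, E cyclins with CDK2 at the entry to S phase, and A and B cyclins with CDK2 or CDK1 through S phase into mitosis. INK4 inhibitors bind CDK4 and CDK6, and CIP/KIP inhibitors bind complexes of several cyclins and CDKs. CDKs phosphorylate the pocket proteins RB1, RBL1 and RBL2, which releases E2F factors, and these in turn drive genes for DNA synthesis and for the cell cycle itself. At this age the liver is the main site of blood formation, and dividing erythroid precursors fill it alongside proliferating hepatoblasts.

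The libraries held 37.6 M and 34.7 M expected counts (estimated reads) in replicates 1 and 2. Levels are given in TPM, a transcript abundance scaled for length and for the library total, which can be compared between genes. On a gene of 1 kb effective length, a floor of 3 reads stood at 0.0953 and 0.103 TPM. Erythroid markers were detected in 10 of 10 genes and hepatoblast markers in 9 of 9, globin genes held 25.6% and 26.2% of all TPM, and the hepatocyte gene Alb stood at 898 and 913 TPM. Of 4 gut and lung markers, 0 reached 1 TPM, while the 4 heart markers all did, with Myl7 at 19.5 and 18.9 TPM and sums of 23.4 and 25.0 TPM. Their part in the members' levels was not tested. These are bulk measurements, so fewer cells of a type and less RNA per cell cannot be told apart, and a level cannot be assigned to 1 cell type.

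Nearly all of the cell cycle genes were expressed, and their levels spanned a wide range. Of the 38, 35 reached 1 TPM in both libraries, against 54.5% of all 21474 protein-coding genes. The 3 below that limit were Ccna1, Cdkn2a and Cdkn2b. The median of the detected members was 29.6 TPM, beside 14.2 TPM over the 11696 protein-coding genes detected in the same way. At a limit of 100 TPM in both libraries, 9 members passed, against 5.39% of protein-coding genes: Ccna2, Ccnb1, Ccnb2, Ccnd3, Ccne1, Cdk1, Cdk4, E2f4 and Cdc25b. Those 9 include at least 1 member of each cyclin class from D to B. They also include Cdk4 but not Cdk6 of the early G1 kinases, the mitotic kinase Cdk1, and the most abundant E2F.

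**Figure D1:**
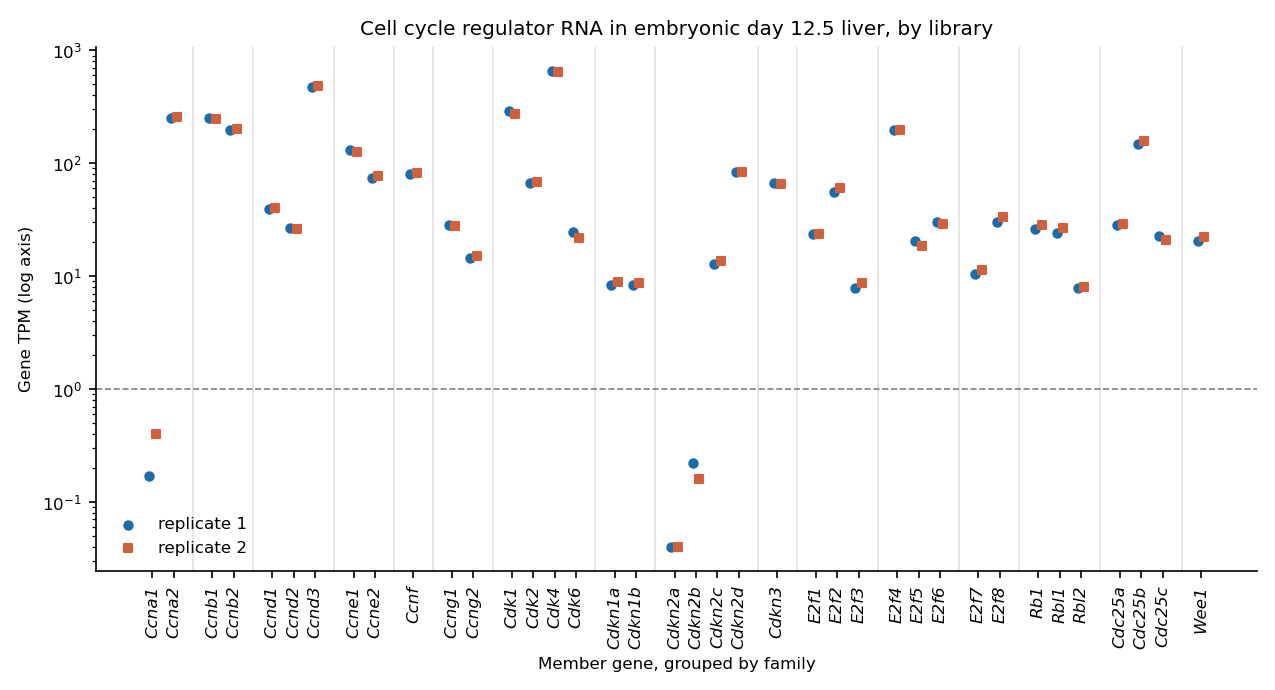
Gene TPM (log axis) of the 38 members in each library, circles for replicate 1 and squares for replicate 2, grouped by family and separated by vertical lines. The dashed line marks 1 TPM: Ccna1, Cdkn2a and Cdkn2b lie below it, and Cdk4 and Ccnd3 lie highest.

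The G1 kinase module was led by Cdk4 and by Ccnd3. Cdk4 (GENCODE M21 gene on mm10, chr10:127063534-127067920, plus strand) encodes a catalytic partner of the D cyclins and had the highest gene TPM of all members, 660.0 TPM in replicate 1 and 647.9 TPM in replicate 2. On protein-coding models alone its mean was 233 TPM, below Ccnd3 (473 TPM), Ccna2 (245 TPM) and Ccnb1 (236 TPM). Its relative Cdk6 stood at 24.9 and 22.0 TPM, so Cdk4 exceeded Cdk6 by 28.0 ± 2.08-fold (mean ± SD, n = 2). In both libraries the CDKs kept the same order, Cdk4 above Cdk1, Cdk1 above Cdk2, and Cdk2 above Cdk6.

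Among the D cyclins, Ccnd3 (chr17:47505051-47599691, plus strand) stood at 475.1 and 481.6 TPM and held 87.8% ± 0.0790 of the D cyclin total. Ccnd1 reached 39.7 and 40.6 TPM. Ccnd2 reached 26.7 and 26.0 TPM. The libraries kept Ccnd3 far above its paralogs, 11.9 ± 0.0704-fold above Ccnd1 and 18.1 ± 0.50-fold above Ccnd2. On protein-coding models Ccnd3 was 23.0 ± 0.628-fold above Ccnd1. The order of the lower 2 depended on the transcript models counted: by gene TPM Ccnd1 was 1.52 ± 0.0510-fold above Ccnd2, and by protein-coding models alone Ccnd2 was 1.28 ± 0.0724-fold above Ccnd1. It was the only one of 33 within-family pairs whose order turned on that choice.

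INK4 inhibitor RNA was almost entirely that of Cdkn2d and Cdkn2c. Cdkn2d, which encodes p19INK4d, stood at 83.1 and 84.2 TPM and held 86.1% ± 0.355 of the family total. Cdkn2c, which encodes p18INK4c, stood at 12.9 and 13.7 TPM. Cdkn2d thus exceeded Cdkn2c by 6.29 ± 0.211-fold in the same libraries.

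The remaining INK4 genes, at the locus that encodes p16INK4a, ARF and p15INK4b, were close to undetected. Cdkn2a had 1 read in each library, below the 3-read floor of 0.120 and 0.129 TPM for its length. Cdkn2b had 9 and 6 reads, 0.22 and 0.16 TPM. At this depth these 2 genes were near or below the limit of counting, and an absence in every cell is not shown.

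The E cyclins and Cdk2 act next in the textbook order. Ccne1 (chr7:38097984-38107534, minus strand) stood at 131.3 and 126.1 TPM, and Ccne2 at 73.6 and 77.6 TPM. Ccne1 held 63.0% ± 1.54 of the E cyclin total, a share that moved more between libraries than any other leading share. Cdk2 was at 67.6 and 68.7 TPM, which put Ccne1 at 1.89 ± 0.0755-fold of its kinase.

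The CIP/KIP members of the set were low. Cdkn1a, which encodes p21 and is a target of p53, was at 8.38 and 8.86 TPM. Cdkn1b, which encodes p27, was at 8.31 and 8.64 TPM. Their levels could not be ordered: the ratio was 1.02 ± 0.0120 by gene TPM, and when reads were divided by the length of the longest model the share of Cdkn1a fell from 50.4% to 45.7%, below that of Cdkn1b. The third paralog, Cdkn1c, which encodes p57 and is an imprinted gene outside the 38, stood at 285.9 and 297.5 TPM. With Cdkn1c counted, it held 94.5% ± 0.0286 of CIP/KIP TPM and exceeded Cdkn1a by 33.8 ± 0.384-fold and Cdkn1b by 34.4 ± 0.0176-fold. The CIP/KIP family as a whole was therefore not low, although both of its members in the set were.

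Cyclins of S phase and mitosis were abundant, at levels close to each other. Ccna2 (chr3:36564865-36572150, minus strand), which partners CDK2 and CDK1, stood at 249.9 and 254.7 TPM. Ccna1, known for meiosis in the male germ line, had 8 and 17 reads, 0.17 and 0.40 TPM, so that nearly all A cyclin RNA was that of Ccna2. Ccnb1 and Ccnb2 drive mitosis with CDK1. Ccnb1 (chr13:100778650-100786570, minus strand) was at 251.4 and 246.4 TPM, and Ccnb2 at 195.6 and 199.4 TPM. Ccnb1 held 55.8% ± 0.684 of the B cyclin total, the most even split among the cyclin families. Ccna2 and Ccnb1 did not differ beyond their spread, with a ratio of 1.01 ± 0.0280.

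Cdk1, the mitotic kinase (chr10:69335146-69352938, minus strand), stood at 290.1 and 274.8 TPM, 4.15 ± 0.206-fold above Cdk2 by gene TPM and 2.59 ± 0.0032-fold on protein-coding models. The lead was smaller when reads were divided by the longest model, where Cdk1 held 19.6% of the CDK total and Cdk2 14.0%. The SD does not cover this choice of length. Cdkn3, a phosphatase that removes the activating phosphate of CDKs, stood at 67.1 and 65.3 TPM. Ccnf, an F-box protein that is named a cyclin but marks proteins for degradation without a CDK partner, stood at 80.7 and 81.5 TPM. The G cyclins were lower: Ccng1, a p53 target, stood at 28.6 and 27.9 TPM, and Ccng2 at 14.6 and 15.1 TPM. Ccng1 held 65.6% ± 0.951 of their sum.

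The kinase and phosphatases that set the inhibitory phosphate on CDKs differed widely. Cdc25b (chr2:131186949-131198497, plus strand), which removes that phosphate at the entry to mitosis, stood at 149.6 and 157.9 TPM and held 75.3% ± 1.04 of CDC25 TPM. Cdc25a was at 28.6 and 28.8 TPM. Cdc25c was at 22.5 and 21.1 TPM. Wee1, which adds the phosphate, stood at 20.5 and 22.4 TPM, 7.17 ± 0.196-fold below Cdc25b.

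E2f4 was the leading E2F by a wide margin. E2f4 (chr8:105297663-105305370, plus strand), classed as a repressor that acts with the pocket proteins and known for a role in fetal red cell formation, stood at 196.8 and 198.3 TPM. It held 52.2% ± 0.497 of the TPM of all 8 E2F genes and 80.1% ± 0.801 of the repressor class. E2f6, a repressor that lacks pocket protein binding, stood at 30.2 and 29.1 TPM, and E2f5 at 20.3 and 18.4 TPM.

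Among activator E2Fs the order was E2f2, E2f1 and E2f3 in both libraries. E2f2 (chr4:136172394-136196057, plus strand) stood at 55.1 and 59.8 TPM, 64.3% ± 1.07 of the activator class and 15.2% ± 0.647 of all E2F TPM. E2f1 was at 23.8 and 23.5 TPM. E2f3 was at 7.90 and 8.74 TPM. E2f2 therefore exceeded E2f1 by 2.43 ± 0.165-fold and E2f3 by 6.91 ± 0.0950-fold. E2f4 exceeded E2f2 by 3.44 ± 0.179-fold.

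The atypical E2Fs bind DNA without a partner and repress E2F targets. E2f8 stood at 30.0 and 33.5 TPM and E2f7 at 10.4 and 11.3 TPM. E2f8 held 74.5% ± 0.315 of their sum, and it was above E2f7 by 2.92 ± 0.0484-fold. On protein-coding models alone that ratio was 4.39 ± 0.127.

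Pocket protein RNA was low beside that of E2f4. Rb1 (chr14:73183673-73325822, minus strand), the retinoblastoma protein, stood at 26.0 and 28.7 TPM. Rbl1, which encodes p107, stood at 24.2 and 26.7 TPM. Rbl2, which encodes p130 and is known from resting cells, stood at 7.84 and 8.04 TPM. That was the lowest mean by gene TPM among the 35 detected members. On protein-coding models E2f7 was lower, with a mean of 6.685 TPM beside 6.865 TPM for Rbl2. By gene TPM Rb1 and Rbl1 were nearly level, with a ratio of 1.07 ± 0.000751, while on protein-coding models Rb1 was 2.05 ± 0.108-fold above Rbl1. E2f4 exceeded Rbl2 by 24.9 ± 0.305-fold.

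**Figure D2:**
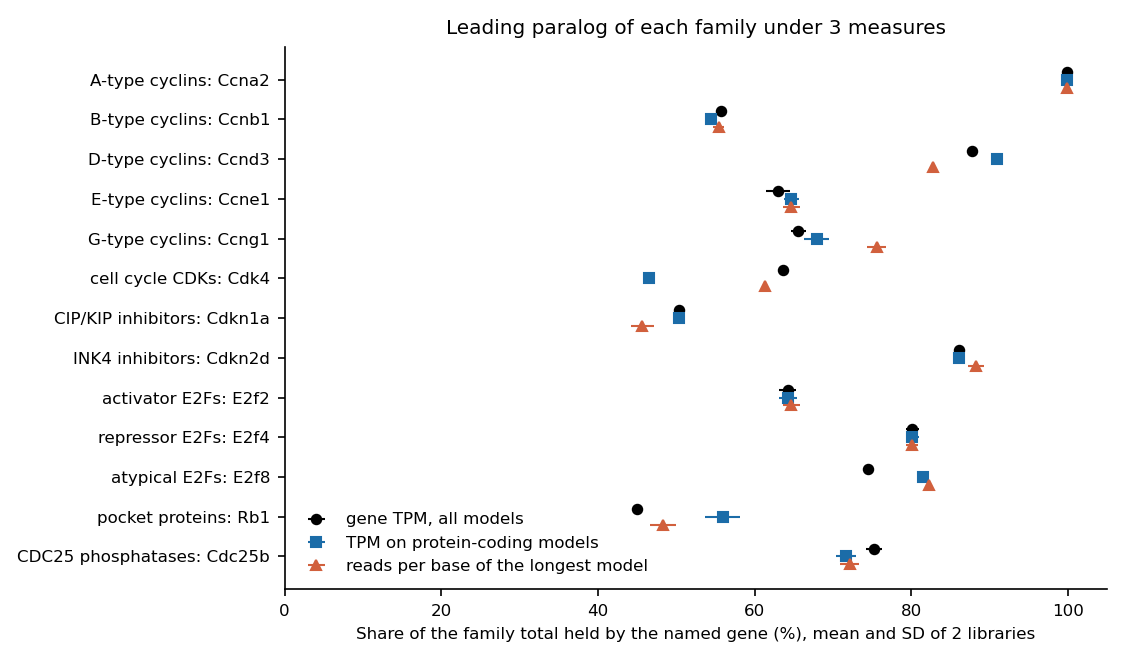
Share of the family total (%) held by the leading paralog of each family with at least 2 members, mean and SD of 2 libraries, under gene TPM (circles), TPM on protein-coding models (squares) and reads per base of the longest model (triangles). Ccna2, Ccnd3, Cdkn2d and E2f4 stay near or above 80% under every measure, and the share of Cdk4 drops from 63.6% to 46.5% on protein-coding models.

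The named leader was the same in 13 of 13 families when only protein-coding models were counted, and in 12 of 13 when reads were divided by the longest model, Cdkn1a being the exception. Sizes moved more than order, most for Cdk4. By gene TPM Cdk4 held 63.6% ± 0.444 of the TPM of the 4 kinases and exceeded Cdk1 by 2.32 ± 0.0584-fold. On protein-coding models Cdk4 held 46.5%, and its lead over Cdk1 was 1.32 ± 0.0535-fold and over Cdk6 9.98 ± 0.571-fold. The sum of the 4 kinases was 1028 ± 20.7 TPM with all models and 501 ± 6.48 TPM with protein-coding models.

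The transcript tables show how each gene total was divided among models. The 38 genes had 140 transcript models: 78 protein-coding, 41 with a retained intron, 16 processed transcripts and 5 subject to nonsense-mediated decay. In 21 members over 99% of TPM lay on protein-coding models, including the 12 members with a model count of 1. Of 25 detected members with at least 2 models, 25 had the same leading model in both libraries, against 91.9% of 8625 detected protein-coding genes of that kind. In 2 of the 25, Cdk4 and Rbl1, the leading model was not protein-coding, against 7.66% of those genes. In 5 of the 25, Ccnd1, Cdk1, Cdk4, E2f7 and Rbl1, under 75% of TPM lay on protein-coding models, against 23.6%. The members' shares of 8.0% and 20.0% lie near that background. Models of the deposited GENCODE M4 annotation that are absent from M21 were counted as not protein-coding. Any such models can raise these background shares, and those by reads below. The 140 member models all had an M21 class.

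In the 5 members with under 75% of TPM on protein-coding models, the leading retained intron model is shown at a join between a coding exon (lower case) and bases outside every exon of the gene's protein-coding models (capitals). The sequences are 5′ to 3′ on the gene's strand, from GENCODE M21 transcripts on GRCm38, the mm10 assembly, at chr10:127066076-127066140 for Cdk4 (plus strand), chr7:144938063-144938142 for Ccnd1 (minus), chr2:157175488-157175567 for Rbl1 (minus), chr10:110767212-110767291 for E2f7 (plus) and chr10:69345021-69345100 for Cdk1 (minus).
Cdk4-209: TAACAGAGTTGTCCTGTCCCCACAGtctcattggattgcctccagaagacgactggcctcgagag
Ccnd1-202: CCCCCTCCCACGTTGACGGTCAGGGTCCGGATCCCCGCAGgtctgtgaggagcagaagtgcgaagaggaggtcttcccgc
Rbl1-202: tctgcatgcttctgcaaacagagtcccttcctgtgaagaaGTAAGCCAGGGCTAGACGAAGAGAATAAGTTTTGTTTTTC
E2f7-208: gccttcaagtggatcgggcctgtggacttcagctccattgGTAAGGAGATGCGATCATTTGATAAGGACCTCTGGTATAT
Cdk1-204: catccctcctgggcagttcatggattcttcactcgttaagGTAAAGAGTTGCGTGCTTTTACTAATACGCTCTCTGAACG

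Most bases of these models lie on exons of the coding models. TPM divides reads by length, so the share of TPM held by a short model exceeds its share of reads. Cdk4-209 is 468 bases long, of which 25 are intronic and 226 are coding. It was assigned 260.3 and 258.3 TPM, 39.7% ± 0.297 of Cdk4 TPM, but 17.1% of Cdk4 reads. Only the 25 capital bases above set it apart from exon sequence of the coding models. The full-length coding model Cdk4-201 had 104.8 and 102.2 TPM and 36.1% of the reads, and a model subject to decay, Cdk4-208, had 18.9% of the TPM.

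Ccnd1-202, 470 bases with 95 intronic, held 48.7% ± 1.18 of Ccnd1 TPM and 8.83% of its reads. Cdk1-204, 475 bases with 56 intronic, held 19.2% ± 1.3 of Cdk1 TPM and 8.11% of its reads. Rbl1-202 was longer, 2383 bases with 556 intronic, and held 45.4% ± 1.39 of Rbl1 TPM and 31.2% of its reads. E2f7-208, 2226 bases with 888 intronic, held 27.4% ± 2.63 of E2f7 TPM and 18.3% of its reads. By share of reads, 0 of the 25 members had a leading model that was not protein-coding, against 4.23% of the 8625 genes, and 2, Cdk4 and Rbl1, had under 75% on protein-coding models, against 12.9%. The RNA was total RNA, and whether these reads came from unspliced precursors or from stable transcripts was not tested.

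**Figure D3:**
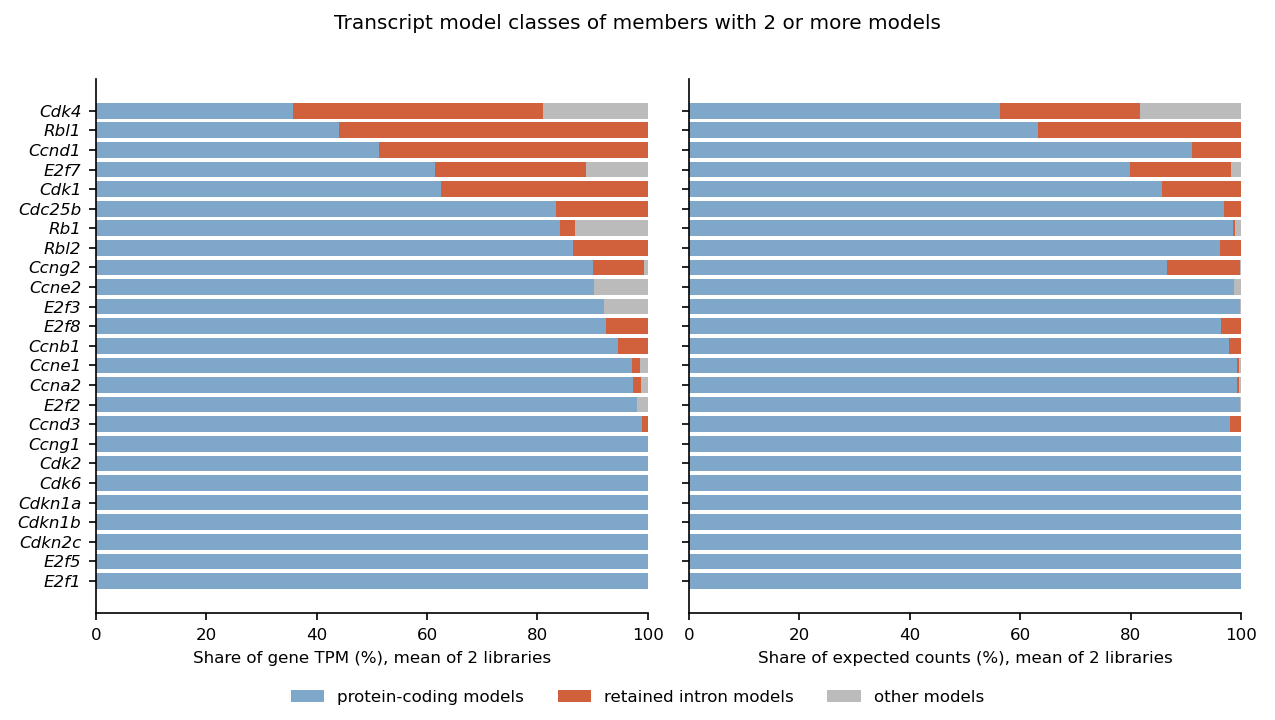
Share of gene TPM (left) and of expected counts (right), both in % and as means of 2 libraries, on protein-coding, retained intron and other models, for 25 detected members with at least 2 models. Cdk4, Rbl1 and Ccnd1 have the smallest protein-coding share of TPM (35.7%, 44.1% and 51.3%), and the share of reads is larger for each.

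Reads of some members could also belong to neighbours. Strandedness is not given in the labels, and 17 of the 38 members share exon bases with a gene on the other strand. The same share over all genes was not computed, so the count is not a trait of the members. Ccnd1 shares 1100 bases with LTO1, which stood at 10.0 and 10.9 TPM. Cdk4 shares 641 bases with Tspan31, which stood at 63.9 and 60.6 TPM. Ccna2 shares 510 bases with Exosc9, at 52.2 and 52.5 TPM. Rb1 shares 488 bases with Rcbtb2, at 25.4 and 24.4 TPM, near its own level. Rbl2 shares 693 bases with Aktip, which stood above Rbl2 at 10.4 and 8.82 TPM. Ccne2 shares 609 bases with Ints8, at 34.7 and 37.2 TPM. E2f5 shares 26 bases with 1810022K09Rik, which was far higher than E2f5 at 343.7 and 350.2 TPM. The deposited spread of the gene count was 0 in both libraries for 29 members, and at most 0.378% of the count, in Rbl2, for the other 9.

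Promoters were examined for 3 kinds of motif, in the 250 bases before each RefSeq start on GRCm38.p6 and on both strands. The E2F words were TTTCCCGC, TTTCGCGC, TTTGCCGC and TTTGGCGC. The cell cycle homology region (CHR), a site of the MuvB complex that is known from genes of G2 phase and mitosis, was searched as TTTGAA or TTCGAA, and the CCAAT box as CCAAT. RefSeq promoters were matched for 29 of the 38 members, at 35 starts. Ccna2, Ccnd1, Ccnd2, Ccne2, Cdc25c, E2f4, E2f5, Rb1 and Wee1 had no entry.

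Of the 35 member promoters, 7 (20.0%) held an E2F word, in Cdc25a, Cdk1, Cdk2, Cdkn2a, E2f3, E2f7 and Rbl1, against 1.86% of all 32851 promoters. A CHR word was found in 9 (25.7%), against 17.1%, and a CCAAT box in 18 (51.4%), against 33.9%. A CHR word and a CCAAT box occurred together in 7 (20.0%), against 6.02%, in Ccnb2, Ccnf, Cdk1, Cdkn3, E2f2, E2f3 and E2f8. In E2f2 the CHR word lay only before a start inside the gene (window chr4:136180532-136180781). The window before its first start held a CCAAT box and no CHR word. These are matches of letters and do not show binding, and no test was made. Some windows without a match lie inside the gene's annotated span, such as those of E2f1 (chr2:154569427-154569676) and Cdk6 (chr5:3343643-3343892). For such genes the bases before the annotated gene start were not examined.

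Only Cdk1 and E2f3 had all 3 motifs at a promoter, and they lie far apart in level, with means of 282 and 8.32 TPM. Another E2f3 start, inside the gene (window chr13:29984392-29984641), had no match, and the E2f3 RNA was not assigned to a start. Cdk4, at a mean of 654 TPM by gene TPM and 233 TPM on protein-coding models, had no match. The 3 promoters are printed to show this contrast, 5′ to 3′ toward the start, with the E2F word, the CHR and the CCAAT box (or their reverse complements) in capitals. They lie at chr10:69352913-69353162 (Cdk1, minus strand), chr13:29986064-29986313 (E2f3, minus) and chr10:127063285-127063534 (Cdk4, plus).
Cdk1: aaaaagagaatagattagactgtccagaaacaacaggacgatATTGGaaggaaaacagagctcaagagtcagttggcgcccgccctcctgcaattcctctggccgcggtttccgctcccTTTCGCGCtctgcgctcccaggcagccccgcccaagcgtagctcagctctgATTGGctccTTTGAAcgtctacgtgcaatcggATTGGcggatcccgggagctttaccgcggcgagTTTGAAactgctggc
E2f3: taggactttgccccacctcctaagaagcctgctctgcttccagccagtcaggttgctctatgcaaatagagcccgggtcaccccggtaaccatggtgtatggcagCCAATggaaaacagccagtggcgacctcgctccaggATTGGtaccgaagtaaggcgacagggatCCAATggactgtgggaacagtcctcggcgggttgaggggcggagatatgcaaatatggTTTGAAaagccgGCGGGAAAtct
Cdk4: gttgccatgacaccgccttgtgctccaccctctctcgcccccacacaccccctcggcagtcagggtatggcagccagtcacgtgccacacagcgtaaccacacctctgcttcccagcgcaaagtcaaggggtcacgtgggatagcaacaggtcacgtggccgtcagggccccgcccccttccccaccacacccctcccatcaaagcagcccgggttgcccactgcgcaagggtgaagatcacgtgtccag

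In the Cdk1 promoter the E2F word TTTCGCGC begins 131 bases before the start, the CHR word TTTGAA begins at 71 and again at 15, and a CCAAT box in reverse orientation begins at 208, 80 and 48. In the E2f3 promoter the E2F word, in reverse orientation, begins 11 bases before the start, TTTGAA at 23, and CCAAT, on either strand, at 145, 109 and 81. The motifs were thus seen together at a high RNA level in Cdk1 and at a low level in E2f3. Their absence was seen at a high level in Cdk4. It was also seen at a low level in Cdkn1a, whose windows had no match and whose mean was 8.62 TPM. Whether motifs relate to RNA level was not tested.

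Genes acting with the members were read from 8 lists. Levels and ranks within a list are by gene TPM over all transcript models, and some ranks differ on protein-coding models. Of the 10 E2F partners and MuvB factors, 9 were detected, with a median of 24.5 TPM over the list. The highest were Rbbp4, a histone-binding MuvB subunit, at 252.4 and 263.9 TPM, and the E2F dimer partner Tfdp1, at 148.4 and 147.8 TPM. On protein-coding models the mean of Rbbp4 was 89.7 TPM, below that of Tfdp1 at 148 TPM. Tfdp2 stood at 74.0 and 76.0 TPM, and Mybl1 was lowest at 0.61 and 0.40 TPM. Tfdp1 exceeded Tfdp2 by 1.98 ± 0.0427-fold.

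CDK assembly and control genes were detected in 8 of 8 cases, at a median of 97.1 TPM. Beside Cdkn1c, the highest were the CDK-binding subunits Cks2, at 360.4 and 352.6 TPM, and Cks1b, at 270.3 and 274.1 TPM. Cdk7, the CDK-activating kinase, was lowest by gene TPM, at 11.1 and 11.2 TPM. On protein-coding models Mnat1 was lower, with a mean of 3.77 TPM. All 8 genes of cyclin and inhibitor turnover were detected as well, with a median of 81.4 TPM. They ranged from Skp1a, a ubiquitin ligase subunit, at 340.6 and 333.9 TPM to Fbxw7, which recognises cyclin E, at 4.30 and 4.27 TPM. Cdc20, an activator of the anaphase-promoting complex, was at 218.5 and 209.1 TPM, and its counterpart Fzr1 at 80.8 and 85.6 TPM.

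The genes of DNA synthesis that E2F factors drive had the highest median of the 8 lists. All 16 S phase E2F targets were found above 1 TPM, and their median was 174.9 TPM. Rrm2, a subunit of ribonucleotide reductase, led at 480.5 and 460.4 TPM, followed by the DNA clamp Pcna at 307.5 and 312.2 TPM and the helicase subunit Mcm6 at 298.7 and 299.7 TPM. The 15 genes of G2 phase and mitosis were all detected at a median of 78.8 TPM, from Birc5 at 324.9 and 321.1 TPM to the kinesin Cenpe at 20.9 and 22.2 TPM. Top2a stood at 218.0 and 227.6 TPM and Cenpa at 198.6 and 198.2 TPM. On protein-coding models their means were 124 and 102 TPM, below Aurka at 150 TPM and Plk1 at 129 TPM.

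In the p53 pathway 9 of 10 genes passed 1 TPM, and the list's median was 26.9 TPM. Bax was highest at 125.1 and 118.3 TPM. Trp53 itself stood at 95.7 and 96.0 TPM and Gadd45a at 76.8 and 84.1 TPM, while the p53 target Cdkn1a was at 8.38 and 8.86 TPM. Zmat3 was lowest at 0.71 and 0.78 TPM. Among mitogenic transcription factors 7 of 7 were detected, with a median of 15.5 TPM. Myc stood at 123.1 and 117.9 TPM, above Jund at 23.9 and 26.9 TPM and Mycn at 16.1 and 15.4 TPM, and Mycl was lowest at 1.07 and 1.37 TPM.

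The other cyclin and CDK paralogs, most of which act in transcription, had a median of 7.65 TPM, beside 28.5 TPM over all 38 members, and 23 of 29 were detected. By gene TPM Ccnl2 was highest at 88.0 and 85.8 TPM, then Cdk9 at 74.8 and 73.9 TPM and Ccnl1 at 64.9 and 64.5 TPM. Ccnb3 was lowest at 0.01 and 0.09 TPM. On protein-coding models Cdk9 was highest, with a mean of 66.1 TPM, while Ccnl2 stood at 37.4 TPM and Ccnl1 at 9.9 TPM. None of these 29 reached 100 TPM in both libraries.

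**Figure D4:**
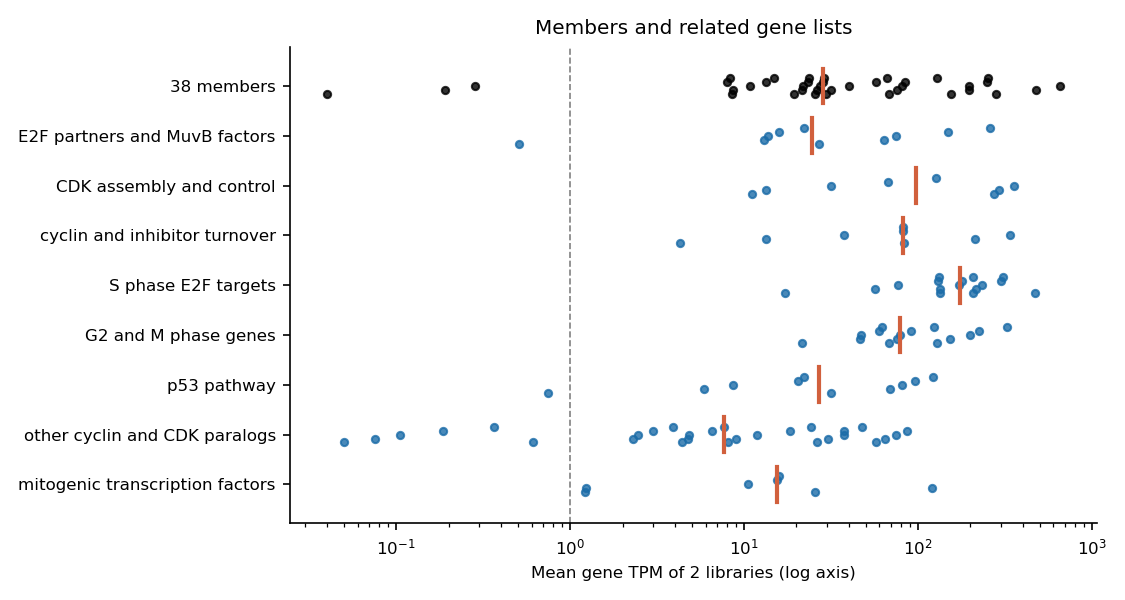
Mean gene TPM of 2 libraries (log axis) for the 38 members and for the 8 related lists, with 1 point per gene. The short vertical line is the list's median, and the dashed line marks 1 TPM. S phase E2F targets have the highest median, 174.9 TPM, and the other cyclin and CDK paralogs the lowest, 7.65 TPM.

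Between the embryo pools the members differed little. Of the 35 members that averaged at least 50 expected counts, 0 were higher in replicate 1 by at least 1.2-fold and 0 were lower, against 5.49% and 6.85% of 13017 genes with such counts. Members are counted deeply, with a median of 2971 expected counts beside 926 for those genes, and 5.25% of the 10104 genes counted at least as deeply as the lowest of those members passed 1.2-fold in either direction. Ratios of replicate 1 to replicate 2 ran from 0.896 in E2f8 (exact 95% Clopper-Pearson interval 0.853 to 0.941) to 1.13 in Cdk6 (1.07 to 1.2). These intervals cover counting error only, and there is no replicate of either pool. The chi-square statistic of counts averaged 5.71 per member and 4.30 per gene, where counting error alone gives a mean near 1. At a given fold this statistic grows with depth, and members are counted more deeply, so these means do not rank members against genes.

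Differences within 1.2-fold leaned lower in replicate 1 among members, 23 lower and 12 higher, against 47.3% and 52.1% of all genes, with a median log2 ratio of -0.02 beside 0.01 over all genes. The interval lay below 1 in 9 members, against 14.6% of genes: Ccna2, Ccne2, E2f2, E2f3, E2f8, Rb1, Rbl1, Cdc25b and Wee1. It lay above 1 in 4, against 16.3%: Ccne1, Cdk1, Cdk6 and E2f5. The direction depended on the scaling. Centring on the spike-ins, which took 5.18% and 5.61% of TPM, shifts every log2 ratio by 0.12, and 28 members were then higher and 7 lower, against 80.3% and 19.7% of genes. The interval was then above 1 in 22 members and below 1 in 0, against 48.8% and 4.21%. An interval narrows with depth, and the median member is counted more deeply than the median gene. With TMM or DESeq2 size factors 22 were lower and 13 higher. Which pool held more cell cycle RNA therefore cannot be stated from these values.

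Markers of other cells moved between the pools too: granulocyte markers were lower in replicate 1 in 5 of 5 genes, with sums of 578 and 669 TPM, and megakaryocyte markers were higher in 4 of 4, with sums of 934 and 824 TPM. Erythroid markers were higher in replicate 1 in 4 of 10 and hepatoblast markers in 6 of 9. Macrophage markers were higher there in 4 of 6, endothelial in 2 of 5, stellate and mesenchymal in 2 of 6, and heart in 1 of 4. All these counts are of TPM as deposited, and the direction of small differences depends on the scaling. Their part in the members' ratios was not tested.

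**Figure D5:**
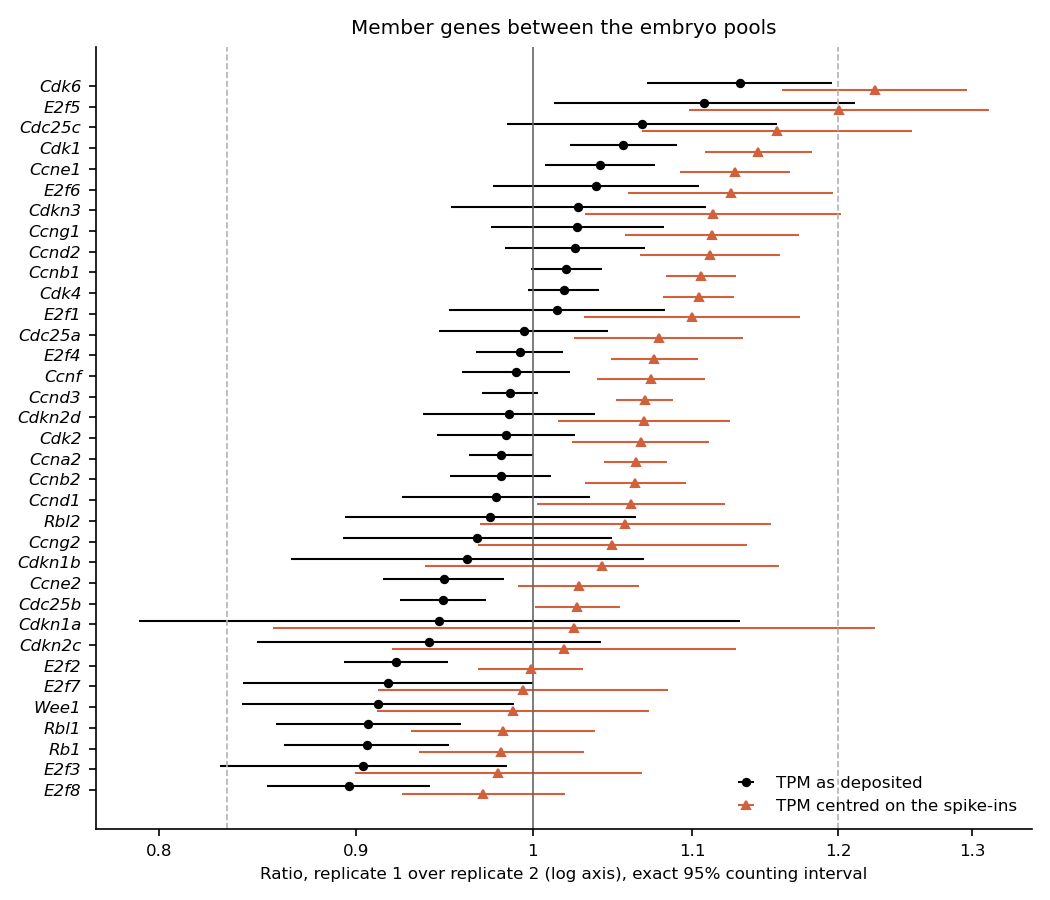
Ratio of TPM in replicate 1 to replicate 2 (log axis) for 35 members averaging at least 50 expected counts, with exact 95% counting intervals, as deposited (circles) and centred on the spike-ins (triangles). Dashed lines mark 1.2-fold. As deposited the ratios run from 0.896 (E2f8) to 1.13 (Cdk6), and centring on the spike-ins moves all of them up.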

How the data were processed

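Total RNA of embryonic liver was measured in 2 libraries of 1 group, each from a separate pool of embryos, per the labels. The authors deposited a gene table and a transcript table for each library, with mm10 as the assembly and M4 as the GENCODE annotation, per the file headers. Which aligner and quantifier made them is not given in the sources used here. Deposited expected counts are estimated reads, not normalized, in which the authors shared reads that match several transcripts. The deposited TPM values are scaled for length and sum to a fixed total with spike-ins included, so a change in abundant RNA such as globin moves every other TPM. The spread of each gene count is another deposited signal, made by the authors' quantification from that library alone, and says nothing of variation between embryos. The deposited bounds of transcript TPM were not used, because the level they cover is not stated.

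Symbols were matched by gene identifier without version. Transcript classes and coordinates came from GENCODE M21 on the same assembly, and promoters from the RefSeq table on GRCm38.p6. Coordinates are 1-based. All 38 members are described by family. From each related list the 3 highest and the lowest gene by mean TPM are named, except for 1 gene that is not reported here. The members and the lists were chosen with earlier results of these data known.

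Shares and ratios were computed within each library and are given as mean ± SD over 2 libraries. Ratios between pools used a pseudocount of 0.1 TPM for the fold limit and exact 95% Clopper-Pearson intervals from expected counts rounded to whole numbers. The interval script was tested on simulated data. Without molecular identifiers, PCR copies cannot be told from separate molecules, so intervals and floors cover counting error only. Depth was 37.6 M and 34.7 M expected counts. Alternatives changed the limits, the transcript models counted, the length scaling, the library scaling (edgeR 4.0.16 TMM, DESeq2 1.42.0 size factors, spike-ins) and the libraries used. Python 3.11.15, pandas 2.3.3, numpy 2.4.6, scipy 1.17.1, matplotlib 3.10.9 and R 4.3.3 were used.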

Additional observations from a re-analysis of the deposited data

How the results depend on the processing

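Of 96 alternatives, 75 left the value within its spread or within 1.5 times of the count, and 21 moved it. Some of the 75 could not have moved. With 2 libraries, a share in 1 library always lies within the SD of the mean. Leaving out a library was therefore no test of the shares. A stricter fold or count limit could not raise a count of 0. The count rule was wide: detected genes among the other cyclin and CDK paralogs fell from 23 to 16 at 5 TPM and still passed it. The 75 is thus not a measure of robustness. The 35 members detected were 35 under every alternative run for that count (limits of 0.5 and 5 TPM, coding models, rescaling without globins, and each library alone). Counting coding models only moved the leading share of Ccnb1 to 54.4%, Ccnd3 to 91.0%, Ccne1 to 64.7%, Ccng1 to 67.9%, Cdk4 to 46.5%, E2f8 to 81.5%, Rb1 to 55.9% and Cdc25b to 71.7%. Dividing reads by the longest model moved it to 82.8% for Ccnd3, 64.7% for Ccne1, 75.6% for Ccng1, 61.3% for Cdk4, 45.7% for Cdkn1a, 88.3% for Cdkn2d, 82.2% for E2f8, 48.3% for Rb1 and 72.1% for Cdc25b. By share of expected counts, 0 members had a leading model that was not protein-coding and 2 had under 75% on coding models. The count of members past 1.2-fold between pools went from 0 to 1 (Cdk6) when centred on the spike-ins, where 17.8% of genes passed, and to 2 (Ccna1 and Cdkn2b, with at most 17 reads) with no limit on counts. No paired analysis was possible because the samples form 1 group. Depth limits Ccna1, Cdkn2a and Cdkn2b, and 2 pools limit everything said of differences between embryos.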
